A study of Mus musculus with 5 samples.

Results

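The enzymes of fatty acid oxidation in mitochondria and peroxisomes were examined in single hepatocytes of mice on 2 diets. The set was 33 genes taken by symbol, all of which had a row among the 18018 genes of the table, and 32 of them had at least 1 UMI (unique molecular identifier, the tag that marks 1 captured mRNA molecule). They were ordered by compartment into 14 mitochondrial steps, 9 peroxisomal steps, 3 enzymes found in both compartments and 7 further genes of the pathway that were put in neither list. The cells came from 5 male C57BL/6J littermate mice that entered the experiment at 8 weeks of age and were fed for 12 weeks. The LFD group (2 mice) received regular chow and the HFD group (3 mice) a high fat diet. Single cell libraries were made by Drop-seq, 1 per mouse. The sources used here do not give the make-up of the diets or the way hepatocytes were isolated. No genotype other than the strain was named for any mouse.

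Both compartments shorten fatty acids by cycles of oxidation, hydration, a second oxidation and thiolytic cleavage. In mitochondria, acyl-CoA dehydrogenases of different chain-length preference carry out the first step and pass electrons to the electron transfer flavoprotein. In peroxisomes, very long-chain and other less common acyl chains are imported by ABC transporters of subfamily D and shortened by bifunctional enzymes and thiolases, and the products leave as carnitine esters or free acids. In rodent liver, many of these genes are known targets of the lipid-sensing nuclear receptor PPAR alpha. Liver lobules run from the portal triad to the central vein, and hepatocytes differ in metabolism along that axis.

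The 454 cells held 1499094 UMIs, and 0 barcodes were shared between mice. LFD mice gave 132 and 84 cells, and HFD mice 5, 208 and 25. HFD mouse 1, with its 5 barcodes and 27903 UMIs, stood apart: 8.98% of its UMIs were mitochondrially encoded against 5.10% to 5.63% in the other mice. Its 8 sinusoidal endothelial markers summed to 1075 CPM (a gene's UMIs per 1e+06 UMIs counted in that mouse), and to 12.9 to 32.0 CPM elsewhere. The sum of 4 red blood cell markers was 502 CPM in HFD mouse 1, 291 CPM in HFD mouse 3 and 3.24 to 13.7 CPM elsewhere. The 10 hepatocyte markers, all detected, summed to 170652 to 204431 CPM, which does not show that each barcode is a hepatocyte. In HFD mouse 1, barcodes of 7481, 6598 and 2725 UMIs held 469, 636 and 369 genes, and those of 8306 and 2793 UMIs held 2309 and 1084. Medians in HFD mouse 2 were 2181.5 UMIs and 862 genes. Whether the 5 barcodes are cells cannot be settled here, and they are counted as cells below. The part of the endothelial and red blood cell markers in the results below was not tested. Results are therefore given for 5 mice and without HFD mouse 1. A count of 0 allows up to 3 UMIs, which is 4.57 to 9.71 CPM in LFD mouse 1, LFD mouse 2 and HFD mouse 2, 51.3 CPM in HFD mouse 3 and, for the shallowest library, HFD mouse 1, 108 CPM. Such limits, and the intervals of shares, cover counting error only. In sums over the cells of a mouse, fewer expressing cells and less RNA per cell cannot be told apart. Drop-seq counts molecules at their 3' ends, so levels of different genes were compared as CPM with no correction for length.

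Acaa1a and Acaa1b, the 2 peroxisomal thiolase genes among the members, carry much of what follows, because they encode the same enzymatic step and had different levels and different changes. They lie 182.6 kb apart on chromosome 9 (Acaa1b at chr9:119148023-119157093 on the minus strand and Acaa1a at chr9:119339676-119350299 on the plus strand, GENCODE vM21, build mm10). The 130 bases before each gene's RefSeq start are shown from 5′ to 3′ (GRCm38.p6), at chr9:119341164-119341293 on the plus strand for Acaa1a and chr9:119157094-119157223 on the minus strand for Acaa1b. Capitals mark CCAAT on either strand, a motif chosen after the sequences had been seen.
Acaa1a: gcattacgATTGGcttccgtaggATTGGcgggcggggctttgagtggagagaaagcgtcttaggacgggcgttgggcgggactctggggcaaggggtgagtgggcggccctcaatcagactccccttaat
Acaa1b: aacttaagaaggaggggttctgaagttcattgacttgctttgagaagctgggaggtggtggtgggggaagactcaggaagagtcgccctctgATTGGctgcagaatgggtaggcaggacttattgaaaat
The Acaa1a stretch held 2 such boxes and the Acaa1b stretch 1, and both stretches were identical at 48.4% of positions of a global alignment. CCAAT was present in the same window of 22.4% of 32851 RefSeq promoters. By contrast, the last 500 transcript bases of the 2 genes, where Drop-seq reads fall, were identical at 74.2% of aligned positions. Of the 50-base words there, 42.1% of those of Acaa1a were also found in Acaa1b and 38.8% of those of Acaa1b in Acaa1a. The sources used here do not say how reads that match both genes were assigned, so the split between Acaa1a and Acaa1b is uncertain while their sum is less so.

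A direct repeat of AGGTCA with 1 base between the copies, the element on which PPAR alpha and its partner RXR are known to bind, was searched on both strands of the 300-base promoters, with up to 2 mismatches. It was found in 4 of 30 promoters of 28 matched members and in 3.86% of all 32851 promoters. The matched letters are shown because PPAR alpha targets are among the members.
Acot12: AGGTGAGAGGTCA
Echs1: AGGTCACGGGTCC
Etfa: AGGGCAAAGGTAA
Acot4: CGGCCAAAGGTCA
Acot12 had 1 mismatch and Echs1, Etfa and Acot4 had 2. No match lay in the promoter windows of Acaa1b or Crot, the 2 members that passed the diet test without HFD mouse 1, and a missing match says only that these letters are not in this window.

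The members together made up 14519 UMIs, or 9685 CPM over all cells. Mitochondrial steps held 7811 of them and peroxisomal steps 5594, while the 3 enzymes of both compartments held 704 and the remaining 7 genes 410. The mitochondrial total was spread over many genes, led by Acaa2, the mitochondrial thiolase (22.8%), and Etfb, a subunit of the electron transfer flavoprotein (21.5%). In the peroxisomal total, Acaa1b alone held 46.6% and Crot, which converts medium-chain acyl-CoA to carnitine esters, held 20.7%. As a share of all UMIs, the members took 0.855% and 0.873% in the LFD mice and 1.35%, 1.05% and 1.24% in HFD mice 1, 2 and 3. Every HFD mouse was thus above both LFD mice in the sum over the set. In HFD mouse 1 this rested on 1 barcode with 234 of its 377 member UMIs, without which the mouse lay below both LFD mice.

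**Figure D1:**
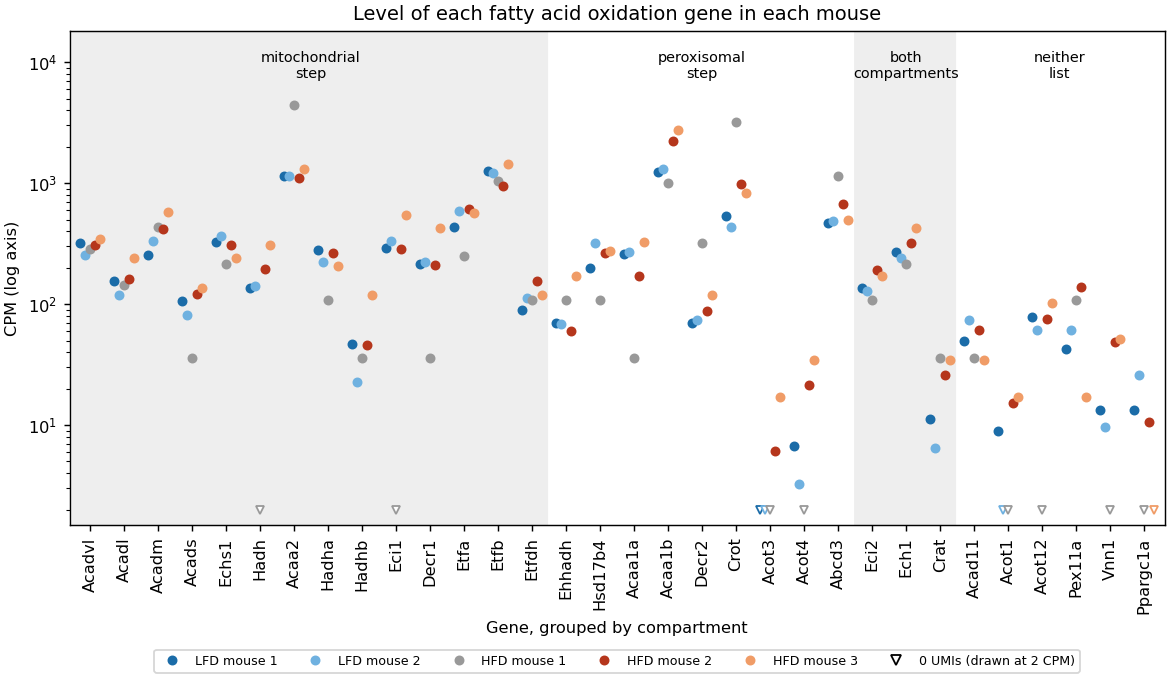
Level of each of the 32 detected members in each mouse, as CPM on a log axis, grouped by compartment. Points are mice (blue LFD, grey HFD mouse 1, red and orange HFD mice 2 and 3), and open triangles mark 0 UMIs. The Acaa1b points of both LFD mice lie at 1246 and 1304 CPM, under those of HFD mouse 2 (2218 CPM) and HFD mouse 3 (2736 CPM).

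The 9 peroxisomal steps, taken as a sum led by Acaa1b and Crot, made up a larger part of the pathway's transcripts in the HFD mice. Of the UMIs of mitochondrial and peroxisomal steps together, the peroxisomal share was 36.1% in LFD mouse 1 (exact 95% binomial interval 34.5% to 37.7%) and 36.4% in LFD mouse 2 (34.5% to 38.3%). It was 45.5% in HFD mouse 1 (40.2% to 50.7%), 46.6% in HFD mouse 2 (45.4% to 47.9%) and 43.1% in HFD mouse 3 (39.4% to 47.0%). The groups did not overlap, and neither did any interval of an HFD mouse with that of an LFD mouse. The log2 ratio of mitochondrial over peroxisomal UMIs was 0.81 ± 0.01 (SD, n = 2) on LFD and 0.29 ± 0.10 (SD, n = 3) on HFD, a difference of -0.53. No p is given for this sum, because its genes were chosen with results of these data known.

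The mitochondrial sum was 5064 and 5161 CPM on LFD and 7096, 5131 and 6585 CPM on HFD, the mice in numerical order. HFD mouse 2, the deepest HFD library, lay between both LFD mice in that sum. The peroxisomal sum was 2860 and 2957 CPM on LFD and 5913, 4484 and 4994 CPM on HFD. Every HFD mouse was above both LFD mice when all barcodes were counted. With Acaa1b left out of the peroxisomal list, the share became 24.2% and 24.3% on LFD and 40.9%, 30.6% and 25.5% on HFD. The order of groups was kept, but the interval of HFD mouse 3 (21.8% to 29.5%) then contained both LFD values. Of the peroxisomal UMIs left, Crot held 241 of 721 and 133 of 511 in the LFD mice. In HFD mice 1, 2 and 3 it held 89 of 137, 645 of 1488 and 48 of 132. With Crot left out too, the shares of the groups overlapped. In HFD mouse 1, 1 barcode held 234 of the 377 member UMIs, among them 127 of 198 mitochondrial and 106 of 165 peroxisomal UMIs. Without that barcode its peroxisomal share was 45.4%. Its peroxisomal sum then lay between both LFD mice and its mitochondrial sum below both.

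**Figure D2:**
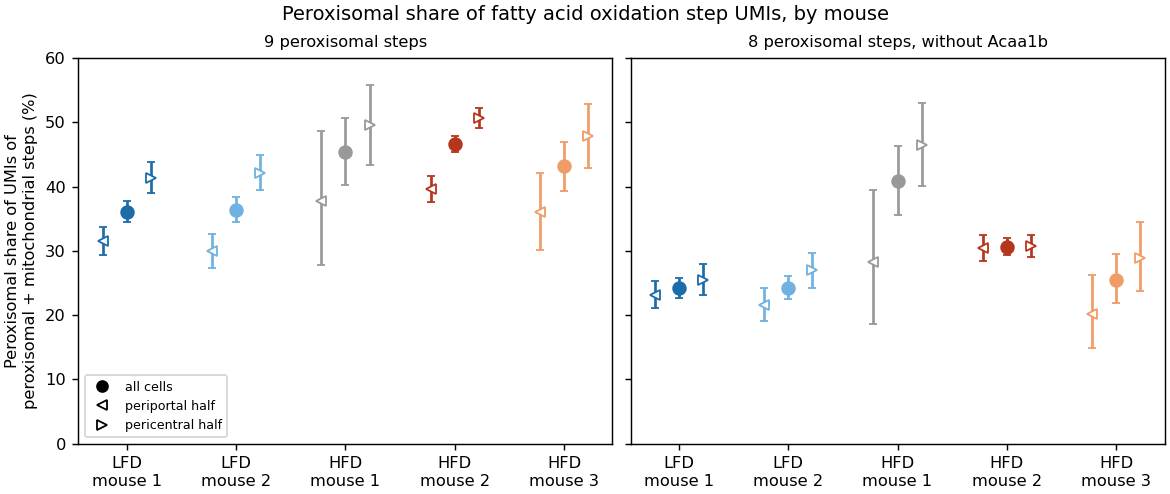
Peroxisomal share of the UMIs of mitochondrial and peroxisomal steps in each mouse, in percent, for all 9 peroxisomal steps (left) and without Acaa1b (right). Filled circles are all cells of a mouse, triangles its periportal and pericentral sides, and bars exact 95% binomial intervals, which cover counting error only. HFD mice lay at 43.1% to 46.6% and LFD mice at 36.1% and 36.4% in the left panel.

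Each gene was then tested for diet on UMIs summed per mouse, and 28 of the 33 members passed the filter on low values. The p-values measure the spread between mice. In the fit to 5 mice, 0 members passed limma voom at an adjusted p under 0.05, where 8 of 3614 genes did (0.221%). At an unadjusted p under 0.05 there were 3 members (Crot, Crat and Vnn1), while 5.12% of all genes reached that level. Crat and Vnn1 reached the filter level of 32.4 CPM in 2 HFD mice and in 0 LFD mice, so they could enter the test only by being higher on HFD and their place in any of these counts supports nothing. The median log2 difference of HFD over LFD was 0.29 over the 28 members and -0.08 over all genes tested. It was 0.07 over the 14 mitochondrial steps (8 above 0 and 6 below) and 0.51 over the 7 tested peroxisomal steps (5 above and 2 below). Hadhb, the highest of the 14 at 0.81, reached the filter level in 3 HFD mice and 1 LFD mouse. It thus passed through the HFD mice and does not support the count above 0. Every HFD mouse was above every LFD mouse for 5 of the 28 members (Acadm, Decr2, Crot, Abcd3 and Crat), against 8.88% of all genes, and the first 4 of these also passed the filter level in both LFD mice. Every HFD mouse was below for 1 member, Echs1, against 14.3% of all genes.

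Without HFD mouse 1, 2 of 27 tested members, Crot and Acaa1b, were called higher on HFD and 0 lower, where 124 of 3670 genes were called in either direction (3.38%) and 1.28% were called higher. At an unadjusted p under 0.05 there were 7 members, against 18.2% of all genes. The median was 0.32 over members and -0.00 over all genes. Both HFD mice were above both LFD mice for 12 of the 27 members, against 20.6% of all genes. These were 5 mitochondrial steps (Acadl, Acadm, Acads, Hadh and Etfdh), 4 peroxisomal steps (Acaa1b, Decr2, Crot and Abcd3), Eci2, Ech1 and Vnn1. Vnn1, which is also among the 7, again passed the filter (26.5 CPM in this fit) only through HFD mice. Echs1 was again the 1 member with HFD below LFD, against 20.2% of all genes. The 2 calls were not made when means of the deposited log values of the same 4 mice were tested with limma-trend.

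Among the peroxisomal steps, Acaa1b, one of the 2 members that are thiolases of the last step, had 1246 and 1304 CPM in LFD mice 1 and 2. It had 1003, 2218 and 2736 CPM in HFD mice 1, 2 and 3. HFD mice 2 and 3 were well above both LFD mice, and HFD mouse 1, on 28 UMIs, was below them. The log2 difference was 0.64 (SE 0.34, limma voom adjusted p = 0.989) with 5 mice. It was 0.88 (SE 0.15, limma voom adjusted p = 0.00302) without HFD mouse 1. Over the settings that kept 2 or more mice per diet, the limma adjusted p ran from 0.00302 to 0.997. Acaa1a, the other thiolase, had 262 and 272 CPM on LFD and 35.8, 172 and 325 CPM on HFD. Its groups overlapped, with a log2 difference of -0.76 (SE 0.54) with 5 mice and -0.44 (SE 0.23) without HFD mouse 1. The sum of both thiolases was 1508 and 1576 CPM on LFD and 1039, 2390 and 3061 CPM on HFD, so HFD mice 2 and 3 stayed above the LFD mice when the split of shared reads did not matter. Molecules of Acaa1b per molecule of Acaa1a were 4.76 and 4.80 in the LFD mice and 28.0, 12.9 and 8.42 in HFD mice 1, 2 and 3, the value of HFD mouse 1 resting on 1 Acaa1a UMI.

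Crot, the carnitine octanoyltransferase that readies shortened chains for export to mitochondria, had 539 and 430.4 CPM on LFD and 3189.6, 982 and 821 CPM on HFD. All HFD mice were above both LFD mice. The log2 difference was 1.20 (SE 0.43, limma voom adjusted p = 0.796) with 5 mice and 0.92 (SE 0.19, limma voom adjusted p = 0.0118) without HFD mouse 1, and the limma adjusted p of all settings ran from 1.68e-05 to 1.00. In HFD mouse 1, 76 of 89 Crot UMIs came from 1 barcode of 7481 UMIs and 469 genes, without which the level was 637 CPM. Abcd3, the transporter PMP70 that imports acyl-CoA into peroxisomes, had 469.9 and 485 CPM on LFD and 1147, 671 and 496 CPM on HFD. All HFD mice were higher, HFD mouse 3 by little, and the log2 difference was 0.51 (SE 0.37) with 5 mice and 0.36 (SE 0.19) without HFD mouse 1. Decr2, the dienoyl-CoA reductase for unsaturated chains, had 69.4 and 74.4 CPM on LFD and 323, 88.3 and 119.7 CPM on HFD. Its groups did not overlap either, but the 9 UMIs of HFD mouse 1 all came from 1 barcode, and the log2 difference of 0.76 (SE 0.55) became 0.34 (SE 0.28) without that mouse.

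The 2 bifunctional enzymes, which catalyse hydration and the second oxidation, showed no separation by diet. Ehhadh had 69.4 and 68.0 CPM on LFD and 108, 59.4 and 171 CPM on HFD. Hsd17b4 had 197 and 320.3 CPM on LFD and 108, 265 and 274 CPM on HFD. The groups overlapped in both genes, with log2 differences of 0.37 (SE 0.55) and -0.15 (SE 0.46). Without HFD mouse 1 both changed sign, to -0.07 (SE 0.32) for Ehhadh and 0.11 (SE 0.24) for Hsd17b4. The peroxisomal thioesterases Acot3 and Acot4, which release free acids, did not pass the filter. Acot3 had 0 UMIs in the LFD mice and HFD mouse 1, 4 UMIs in HFD mouse 2 and 1 in HFD mouse 3. Acot4 had 3 and 1 UMIs in the LFD mice and 0, 14 and 2 in HFD mice 1, 2 and 3, which is 21.3 CPM in HFD mouse 2 against 6.71 CPM in LFD mouse 1. These levels were too low for a comparison between diets at this depth.

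Of the mitochondrial acyl-CoA dehydrogenases, Acadm, the medium-chain enzyme, had 253 and 330.0 CPM on LFD and 430.1, 420.2 and 581 CPM on HFD. It was the only mitochondrial step with every HFD mouse above both LFD mice. Its log2 difference was 0.63 (SE 0.37, limma voom adjusted p = 0.989) with 5 mice and 0.66 (SE 0.21, limma voom adjusted p = 0.0989) without HFD mouse 1, short of the threshold in both. The very long-chain enzyme Acadvl had 320.0 and 256 CPM on LFD and 287, 311 and 342 CPM on HFD, with overlapping groups. The long-chain enzyme Acadl and the short-chain enzyme Acads lay between 80.9 and 154 CPM on LFD. Acadl had 143, 160 and 239 CPM and Acads 35.8, 120.3 and 137 CPM on HFD, so both overlapped between diets, and their log2 differences were 0.33 (SE 0.45) and 0.20 (SE 0.52). They were 0.32 (SE 0.25) and 0.38 (SE 0.27) without HFD mouse 1.

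Echs1, the short-chain enoyl-CoA hydratase, had 329 and 369 CPM on LFD and 215, 311 and 239 CPM on HFD. All HFD mice were below both LFD mice, but the log2 difference of -0.38 (SE 0.39), or -0.25 (SE 0.21) without HFD mouse 1, did not pass the test. Hadh, the hydroxyacyl-CoA dehydrogenase, had 137 and 142 CPM on LFD and 0, 195 and 308 CPM on HFD, where 0 UMIs in HFD mouse 1 allow up to 108 CPM. Without that mouse its log2 difference was 0.61 (SE 0.24, limma voom adjusted p = 0.171). Hadha and Hadhb encode the 2 subunits of the trifunctional protein and start 0.085 kb apart on opposite strands of chromosome 5. Hadha had 279.7 and 223 CPM on LFD and 108, 266 and 205 CPM on HFD, while Hadhb had 47.0 and 22.7 CPM on LFD and 35.8, 45.7 and 119.7 CPM on HFD. Hadha was thus the higher of the pair in all 5 mice, and in neither gene did the groups separate.

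The thiolase Acaa2 had 1139 and 1142 CPM on LFD and 4408, 1096 and 1317 CPM on HFD. The high value of HFD mouse 1 came from the same barcode as its Crot, which held 110 of 123 Acaa2 UMIs, and without it the level was 637 CPM. The log2 difference was 0.29 (SE 0.40) with 5 mice and 0.00 (SE 0.16) without HFD mouse 1. The flavoprotein subunit Etfb had 1269 and 1217 CPM on LFD and 1039, 947 and 1437 CPM on HFD, with overlapping groups. Of its last 50-base words, 48.8% also occur in Gm45233, which overlaps it on the same strand, so its level may hold reads of either. Its partner Etfa and the oxidoreductase Etfdh, which hands the electrons to ubiquinone, had log2 differences of -0.03 (SE 0.41) and 0.43 (SE 0.47), and of 0.23 (SE 0.19) and 0.59 (SE 0.26) without HFD mouse 1. Eci1 and Decr1, which prepare unsaturated chains, had 0 UMIs and 1 UMI in HFD mouse 1 and overlapped between diets. Their log2 differences were -0.68 (SE 0.79) and -0.24 (SE 0.59) with 5 mice and had the opposite sign, 0.11 (SE 0.22) and 0.16 (SE 0.24), without it.

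Among enzymes of both compartments, Crat, the carnitine acetyltransferase, had 11.2 and 6.47 CPM on LFD and 35.8, 25.9 and 34.2 CPM on HFD. All HFD mice were higher on 1 to 17 UMIs each, with a log2 difference of 1.65 (SE 0.67, limma voom adjusted p = 0.917), and without HFD mouse 1 the gene did not pass the filter. The isomerases Eci2 and Ech1 had log2 differences of 0.31 (SE 0.45) and 0.29 (SE 0.40), and of 0.49 (SE 0.23) and 0.41 (SE 0.20) without HFD mouse 1. Vnn1, a pantetheinase that recycles the vitamin part of coenzyme A, had 13.4 and 9.71 CPM on LFD and 0, 48.7 and 51.3 CPM on HFD. HFD mice 2 and 3 were above both LFD mice, and the log2 difference was 1.67 (SE 0.67, limma voom adjusted p = 0.915) with 5 mice. Pex11a, which promotes peroxisome division, had 42.5 and 61.5 CPM on LFD and 108, 139 and 17.1 CPM on HFD, the last on 1 UMI. Acad11, an acyl-CoA dehydrogenase, and Acot12, a cytosolic acetyl-CoA thioesterase, had log2 differences of -0.20 (SE 0.55) and -0.16 (SE 0.62), which without HFD mouse 1 were 0.02 (SE 0.35) and 0.12 (SE 0.30). Acot1, a cytosolic thioesterase, had 4 and 0 UMIs on LFD and 0, 10 and 1 on HFD. The coactivator gene Ppargc1a had 6 and 8 UMIs in the LFD mice and 0, 7 and 0 in HFD mice 1, 2 and 3, whose limits of 108 and 51.3 CPM at 0 UMIs exceed the LFD levels of 13.4 and 25.9 CPM. Pdk4, an inhibitor of pyruvate dehydrogenase, had 0 UMIs in all 5 mice.

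**Figure D3:**
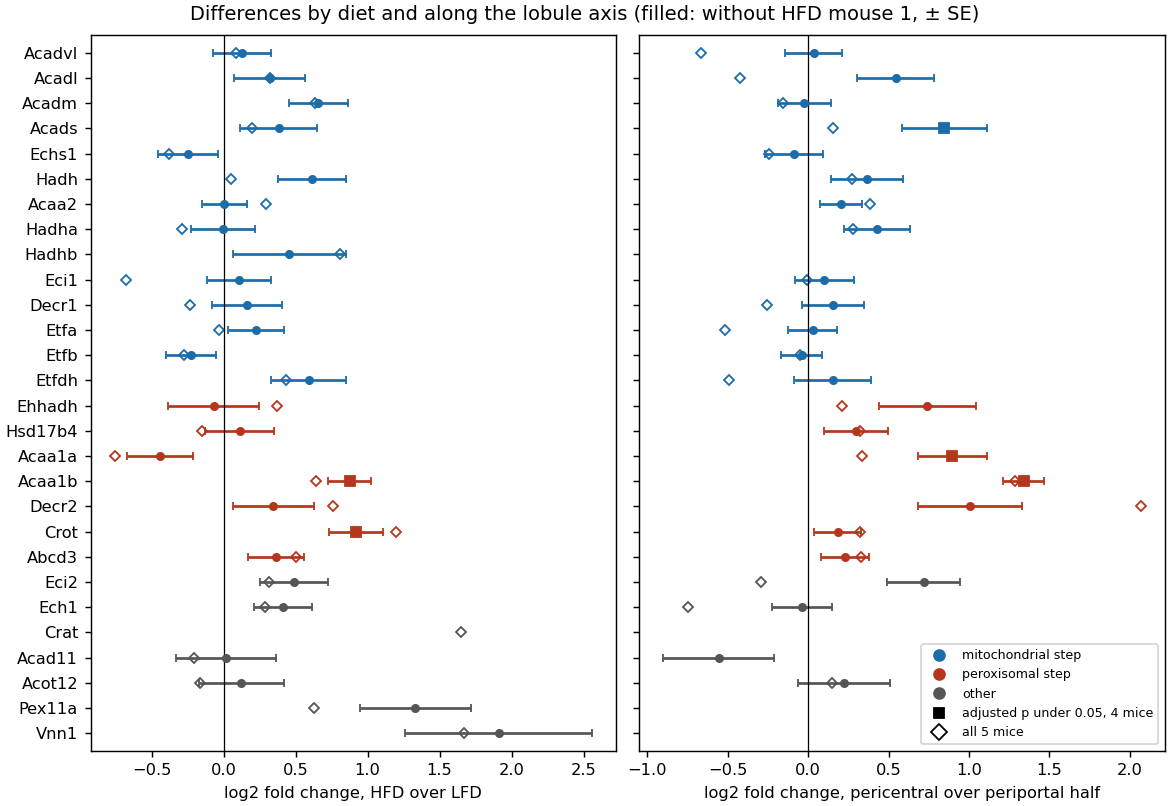
Log2 fold changes of members by diet (HFD over LFD, left) and along the lobule (pericentral over periportal side, right). Filled symbols with bars are values ± SE without HFD mouse 1, squares mark a limma voom adjusted p under 0.05 there, and open diamonds are the fits to 5 mice. Squares stand at Acaa1b and Crot on the left and at Acaa1b, Acaa1a and Acads on the right.

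For position along the lobule, cells were ranked within their mouse on 20 pericentral over 20 periportal landmark genes, none of them a member, and divided at the median into 2 sides. Within each side the cells were summed per mouse, so a side is a ranked set of cells and not a dissected zone. In LFD mouse 1 the median cell had 3426 UMIs on the periportal and 2160 on the pericentral side, and in LFD mouse 2 it had 3408 and 2701. In HFD mouse 2 these medians were 2134 and 2188.5, and in HFD mouse 3 they were 1878.5 and 1906. HFD mouse 1 contributed 2 cells per side, with medians of 5549.5 and 7039.5. Pericentral landmarks on the pericentral side summed to 10442 and 11745 CPM in LFD mice 1 and 2, and to 9701 and 6125 CPM in HFD mice 2 and 3. On the periportal sides of these mice they summed to 1150 to 1881 CPM. In HFD mouse 1 they summed to 991 CPM periportal and 2060 CPM pericentral. By these landmarks its pericentral side was close to the periportal sides of the other mice. The part of depth and of landmark levels in the differences between sides was not tested.

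The peroxisomal share of the pathway was higher on the pericentral side of every mouse. It went from 31.5% periportal to 41.4% pericentral in LFD mouse 1 and from 29.9% to 42.1% in LFD mouse 2. In HFD mice 1, 2 and 3 it went from 37.8% to 49.6%, from 39.6% to 50.6% and from 36.0% to 47.9%. The log2 ratio of mitochondrial over peroxisomal UMIs differed by -0.69 ± 0.06 (SD, n = 5), pericentral minus periportal, with all 5 mice between -0.77 and -0.62. On the pericentral side of HFD mouse 1, 1 barcode held 127 of 131 mitochondrial and 106 of 129 peroxisomal UMIs. That side was low in pericentral landmarks, so the value of HFD mouse 1 adds little to those of the other mice. Without Acaa1b the share went from 23.2% to 25.5% and from 21.6% to 26.9% in the LFD mice, from 30.5% to 30.8% in HFD mouse 2 and from 20.1% to 28.9% in HFD mouse 3. In these 4 mice the step was smaller without Acaa1b. In HFD mouse 1 it was larger, from 28.2% to 46.5%, on 2 cells per side. Without Acaa1b the exact 95% intervals of both sides overlapped in LFD mouse 1 and HFD mice 2 and 3, while those of LFD mouse 2 were 19.1% to 24.2% and 24.3% to 29.7%.

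The same ranking was also divided into 3 parts. The mitochondrial sum went from 4806 over 5038 to 5529 CPM in LFD mouse 1 and from 4490.4 over 4508 to 6121 CPM in HFD mouse 2. Acaa1b went from 751 over 1038 to 2340.5 CPM in LFD mouse 1, and from 676 over 1087 to 2498 CPM in LFD mouse 2. In HFD mouse 2 it went from 901 over 1376 to 3946 CPM, and in HFD mouse 3 from 1297 over 2346 to 4935 CPM. In all 4 mice the periportal part was lowest and the pericentral part highest, and in each part both HFD mice were above both LFD mice. The parts are ranks within a mouse and landmark levels differed between mice, so equal parts need not be the same place in the lobule. The share of this in the difference between diets was not tested.

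**Figure D4:**
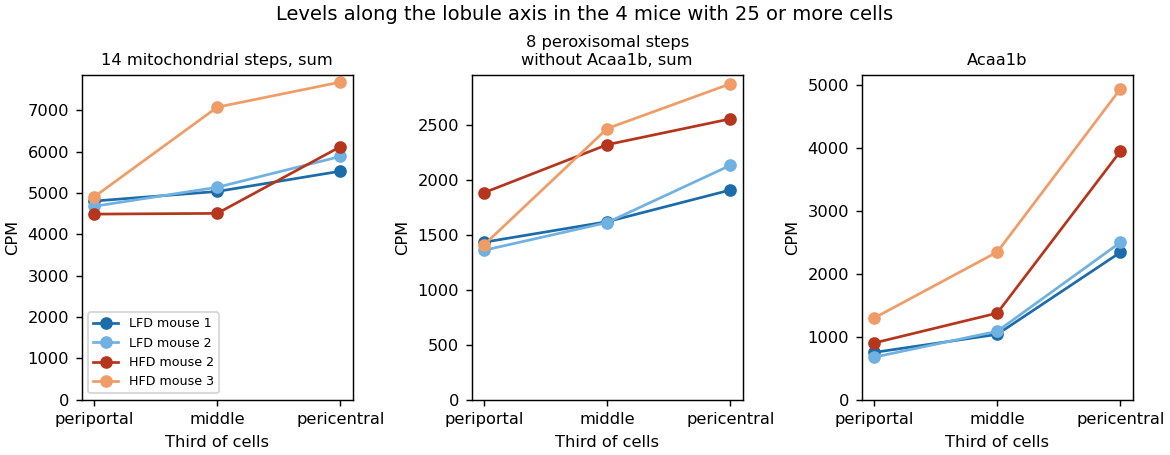
Summed CPM of the 14 mitochondrial steps, of the 8 peroxisomal steps other than Acaa1b, and of Acaa1b, in 3 equal parts of the cells of each mouse from periportal to pericentral. Lines are the 4 mice with 25 or more cells, with no error bars because each point is 1 sum. Acaa1b ended at 2340.5 and 2498 CPM on LFD, under its ends in HFD mouse 2 (3946 CPM) and HFD mouse 3 (4935 CPM).

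Per gene, 23 members passed the filter for the comparison of sides, with the mouse as a block. With 5 mice, limma voom called 0 members and 0 of 1704 genes (0%) at an adjusted p under 0.05, while 119 genes (6.98%) and 2 members, Acaa1b and Decr2, had an unadjusted p under 0.05. Decr2 reached the filter level of 66.0 CPM on all 5 pericentral sides and on 0 periportal sides, so it could enter only by being higher pericentrally and supports none of the counts of this fit. The median over all genes was -0.30 in that fit, and 12 of the 23 members were above 0. All 7 tested peroxisomal steps were above 0, with a median of 0.33, against 4 of 13 mitochondrial steps, with a median of -0.16. The 7 include Decr2 and also Ehhadh, which reached the filter level on 5 pericentral and 2 periportal sides. With 5 sides needed, Ehhadh too passed through its pericentral sides, so neither gene supports that count. In every mouse 5 members (Acaa2, Hsd17b4, Decr2, Crot and Abcd3) were higher on the pericentral side, against 4.58% of all genes, and 0 members were lower there in every mouse, against 6.69%.

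Without HFD mouse 1, limma voom called 3 of 24 members, all higher on the pericentral side, where 137 of 2033 genes were called in either direction (6.74%) and 3.15% were called higher. An unadjusted p under 0.05 was reached by 8 members and 17.6% of all genes. The median was 0.74 over the 7 peroxisomal steps, 0.15 over 13 mitochondrial steps and -0.01 over all genes. All 7 peroxisomal steps were higher on the pericentral side of all 4 mice, and so were 5 of 13 mitochondrial steps (Acadl, Acadm, Acads, Acaa2 and Hadha) and Acot12, against 14.6% of all genes. Decr2 reached the filter level, 56.8 CPM here, on 4 pericentral and 2 periportal sides, and Ehhadh, Hadha and Acot12 on 4 and 3. With 4 sides needed, the filter leaned to the pericentral sides of these genes. Acad11 was lower on the pericentral side in all 4 mice, against 8.41% of all genes, with a log2 difference of -0.56 (SE 0.35). In HFD mouse 3 this rested on 1 UMI per side (36.2 and 33.8 CPM). Acad11 reached the filter level on 3 periportal and 2 pericentral sides, so for this gene the filter leaned to the periportal sides.

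Acaa1b went from 777 periportal to 1921 CPM pericentral in LFD mouse 1 and from 713 to 2079.7 CPM in LFD mouse 2. In HFD mouse 2 it went from 988 to 3269.5 CPM, in HFD mouse 3 from 1880.1 to 3587 CPM and in HFD mouse 1 from 1081 to 1065 CPM. The pericentral side was higher in all mice except HFD mouse 1, whose sides rested on 2 cells each. The log2 difference was 1.29 (SE 0.23, limma voom adjusted p = 0.238) with 5 mice and 1.34 (SE 0.13, limma voom adjusted p = 8.23e-09) without HFD mouse 1, with limma adjusted p from 8.69e-10 to 0.825 over all settings. Acaa1a went from 219.97 to 322 CPM and from 205 to 359 CPM in the LFD mice, from 76.0 to 254 CPM in HFD mouse 2 and from 181 to 474 CPM in HFD mouse 3. It was higher on the pericentral side in these 4 mice, with a log2 difference of 0.90 (SE 0.21, limma voom adjusted p = 0.00588) and 0.33 (SE 0.55) when HFD mouse 1 was kept. Its limma adjusted p over all settings ran from 0.00588 to 0.976.

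Acads, the short-chain dehydrogenase, was the only mitochondrial step called. It went from 64.5 to 164 CPM and from 74.1 to 89.8 CPM in the LFD mice, from 79.3 to 155 CPM in HFD mouse 2 and from 72.3 to 203 CPM in HFD mouse 3. All 4 mice were higher on the pericentral side, with a log2 difference of 0.85 (SE 0.26, limma voom adjusted p = 0.0480), against 0.15 (SE 0.58) with 5 mice. Over all settings its limma adjusted p ran from 0.0480 to 0.985, and no other setting called it. Decr2 went from 49.3 to 98.3 CPM and from 57.0 to 97.2 CPM in the LFD mice, from 59.5 to 113 CPM in HFD mouse 2 and from 0 to 237 CPM in HFD mouse 3. It was higher on the pericentral side of every mouse, but without HFD mouse 1 its log2 difference of 1.01 (SE 0.32, limma voom adjusted p = 0.0563) missed the threshold. Eci2, an isomerase of both compartments, had 0.72 (SE 0.23, limma voom adjusted p = 0.0515) without HFD mouse 1 and -0.29 (SE 0.67) with it.

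Acaa1b was also the only member called within a diet. In the 2 LFD mice its log2 difference was 1.32 (SE 0.12, limma voom adjusted p = 0.00111), where 1.33% of 2113 genes were called. In HFD mice 2 and 3 it was 1.35 (SE 0.20, limma voom adjusted p = 0.0460), where 0.467% of 2143 genes were called. For the interaction of side and diet, limma voom called 0 members with 5 mice, where 0% of 1704 genes were called and 0.411% reached p under 0.05 before adjustment. With that mouse left out it also called 0 members, where 0.0984% of 2033 genes were called and 4.18% reached an unadjusted p under 0.05. The interaction of Acaa1b was 0.05 (SE 0.26) without HFD mouse 1. That of Acaa1a was 0.96 (SE 0.39, limma voom adjusted p = 0.894), and its side difference was 0.56 (SE 0.17) in the LFD mice and 1.49 (SE 0.30) in HFD mice 2 and 3.

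From cell to cell, in the 4 mice with 25 or more cells, Acaa1b varied more than Acaa2 and Etfb, the leading mitochondrial steps. With each cell thinned to 1728 UMIs and shallower cells left out (114, 74, 134 and 14 cells kept in LFD mouse 1, LFD mouse 2, HFD mouse 2 and HFD mouse 3), the variance over the mean of Acaa1b counts was 2.52, 2.31, 4.31 and 2.18. For Acaa2 it was 1.06, 1.38, 1.38 and 1.00, and for Etfb it was 1.14, 1.02, 0.892 and 1.78. In the 5 cells of HFD mouse 1 the order was the opposite, with 0.214 for Acaa1b, 31.9 for Acaa2 and 2.25 for Etfb. A value of 1 is what independent sampling of molecules gives. Thinned cells with an Acaa1b UMI were 80.7%, 75.7%, 83.6% and 100% of cells, and before thinning 91.7%, 88.1%, 86.5% and 92%. For Crot they were 55.3% and 36.5% on LFD and 72.4% and 71.4% on HFD, and before thinning 74.2%, 63.1%, 83.7% and 80%. As a description across the cells of 1 library, which share depth and the landmark ranking, Pearson's r of Acaa1b with the ranking score was 0.60 to 0.68 in the 4 mice.

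Other genes of the pathway were counted from fixed lists beside the members. Of 15 tested genes of other peroxisomal oxidation, 13 were below 0 by diet with 5 mice, with a median of -0.34, and limma voom called 0. Cat and Scp2, the most abundant of that list, had log2 differences of -0.22 (SE 0.28) and 0.08 (SE 0.32). Nudt7, a peroxisomal hydrolase of coenzyme A, had 1148 and 951 CPM on LFD and 143, 419 and 171 CPM on HFD. It was called without HFD mouse 1 (log2 difference -1.61, SE 0.26, limma voom adjusted p = 0.00168) and was the only gene of that list called by diet.

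In the list of the carnitine gate and ketogenesis, 6 of 8 tested genes were above 0 with a median of 0.23, and 0 were called with 5 mice. Without HFD mouse 1, Acat1 (0.74, SE 0.19, limma voom adjusted p = 0.0431), a mitochondrial acetyl-CoA thiolase, was called higher. Of 11 genes of fatty acid activation and binding, 6 were above 0, and Fabp1, which binds fatty acids in the hepatocyte cytosol, was called without HFD mouse 1 (0.70, SE 0.14, limma voom adjusted p = 0.0106). Dbi, the acyl-CoA binding protein, had 0.16 (SE 0.28). Of 12 regulators and PPAR alpha targets, 7 were above 0, and Cyp4a14, a fatty acid omega-hydroxylase, was called with 5 mice. It had 38.0 and 9.71 CPM on LFD and 215, 303 and 325 CPM on HFD, every HFD mouse being higher, with a log2 difference of 3.72 (SE 0.58, limma voom adjusted p = 0.0276). It reached the filter level in all 3 HFD mice and in 1 LFD mouse, and so passed the filter through the HFD mice. Plin2, a lipid droplet coat protein, was called in addition without HFD mouse 1 (0.91, SE 0.22, limma voom adjusted p = 0.0269).

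Of 15 genes of other mitochondrial oxidation, 6 were above 0 with a median of -0.27, and Gcdh and Hsd17b10 had log2 differences of 0.00 (SE 0.36) and 0.43 (SE 0.47). Of 13 genes of peroxisome biogenesis, 8 were above 0 with a median of 0.06, and Pxmp2 and Fis1 had -0.91 (SE 0.47) and -0.80 (SE 0.63). Neither list had a gene called with or without HFD mouse 1.

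Among 827 genes with at least 200 UMIs, levels over the 8 mouse sides without HFD mouse 1 were most like the mitochondrial sum for Aldh2 (r = 0.92), Creg1 (0.90), Tmbim6 (0.89), Fkbp2 (0.89) and Cideb (0.89). They were most like the peroxisomal sum for Psmc3 (r = 0.94), Aldh2 (0.93), Nfib (0.92) and Cpox (0.92), followed by Acsl1. These are descriptions over libraries that share mice and depth. With HFD mouse 1 the leading genes were Tmbim6 (r = 0.95) for the mitochondrial and Hsp90aa1 (r = 0.87) for the peroxisomal sum, so the order of likeness changed with that mouse.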

How the data were processed

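Hepatocytes of 5 mice (2 LFD and 3 HFD) were profiled by Drop-seq, and the titles of the samples, matched to the prefix of each cell column, gave mouse and diet. Upstream tools were STAR 2.6.0a with genome build mm10, per the submitters' processing notes. Cell filters, annotation, strand and doublet handling were not stated in the labels, and no doublet caller was run. The main table was deposited by the authors as the natural log (ln) of 1 plus UMIs per 10000 of a cell, as its values show: every cell summed to 10000 after back-transformation, and 100% of nonzero values gave a whole number of UMIs within 0.001. UMIs were recovered on that basis. A smoothed (MAGIC) table on the natural log scale, as deposited, served only to compare directions.

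UMIs were summed per mouse, or per mouse and side, and fitted by voom in limma 3.58.1 (R 4.3.3) with trimmed-mean factors and Benjamini-Hochberg adjustment over all genes tested. A gene was tested if it reached the level of 10 UMIs in a library of median size (32.4 CPM by diet in 2 mice, 66.0 CPM in 5 of 10 mouse sides, recomputed for the mice of each fit) and had 15 UMIs in all. The lobule score was the log of pericentral over periportal landmark UMIs, each plus 1, and the middle cell of an odd number was left out. Landmarks were not tested. Intervals are exact 95% binomial. The voom fit was also run on simulated data in which no library stood apart as HFD mouse 1 does, so that run does not cover the influence of this mouse. Promoters are from RefSeq (GRCm38.p6), positions from GENCODE vM21.

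The members, lists and tests were chosen with earlier results of these data known. The text names all members, from each pathway list the 3 genes of smallest p past the threshold or else up to 2 of highest CPM, and the 5 genes most like each sum. Some genes that this rule names are not reported here. HFD mouse 1 was left out in alternatives. Other alternatives changed scaling, filters, test, sides, score, cells and replicate block.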

Additional observations from a re-analysis of the deposited data

How the results depend on the processing

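The direction of the mitochondrial to peroxisomal ratio was kept under every alternative run. The diet difference of -0.53 ranged from -0.59 to -0.48 with 1 mouse left out. It became -0.89 and -0.35 when genes were weighted alike as the mean of log2(CPM + 1) and log2(CPM + 50), and -0.89 without the most abundant member of each compartment (Acaa2 and Acaa1b). These 3 values rested in part on HFD mouse 1, without which they were -0.64, -0.13 and -0.25. The side difference of -0.69 ranged from -0.70 to -0.67 with 1 mouse left out. It became -0.82 as the mean of log2(CPM + 10), -0.55 with Eci2, Ech1 and Crat counted as peroxisomal, and -0.97 without Acaa2 and Acaa1b. These were -0.25, -0.60 and -0.34 without HFD mouse 1. The values without HFD mouse 1 were added after the data were seen.

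Counts of calls depended on HFD mouse 1. By diet, the 8 genes and 0 members called became 0 to 124 genes and 0 to 2 members with 1 mouse left out, the upper values being those without HFD mouse 1. The count of genes was 0 with a minimum of 50 UMIs, 2 with no filter, 14 with means of deposited log values, 0 with log2(CPM + 10), 0 with log2(CPM + 50) and 2 without the 5% of cells with most UMIs, with 0 members each time. Among alternatives added after the data were seen, all without HFD mouse 1, means of deposited log values called 44 genes and 0 members. Leaving out the 5% deepest cells called 82 genes and 2 members, and leaving out HFD mouse 3 too, where the lone HFD mouse is assumed to vary like the LFD mice, called 202 genes and 3 members.

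Along the lobule, the 0 genes and 0 members called became 0 to 137 genes and 0 to 3 members with 1 mouse left out, again highest without HFD mouse 1. The count was 4 genes when only the cells at both ends of a 3-part division were compared, 2 with the scaled mean score, 1 with a minimum of 50 UMIs, 3 with no filter, and 6 genes and 1 member, Acaa1b, without the 5% of cells with most UMIs. Without HFD mouse 1, that 3-part division gave 150 genes and 3 members and the scaled score 144 genes and 3 members. The side difference of Eci2 was -0.29 with 5 mice and 0.72 without HFD mouse 1, and 0.93 and 0.80 in these 2 added settings. The interaction gave 0 to 2 genes and 0 members with 1 mouse left out. The cause of these changes other than fewer mice or genes was not tested.

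With the replicate number as a block, 29 genes and 0 members were called by diet, and the ratio difference was -0.59. In the labels these mice share only a number. The pairing check gave correlations of 0.03 and 0.06 between same-numbered mice. With 2 LFD mice the deviations from their mean mirror each other, so this check can neither show nor exclude a pairing. The smoothed table gave the opposite sign to the summed UMIs by diet for 9 of 28 members, Acaa1b among them (-0.02). The peroxisomal targeting signal rule was not run, because no protein sequences were used here. Depth limits all values of HFD mouse 1 and the weak members Acot1, Acot3, Acot4, Pdk4 and Ppargc1a.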
